A study of Mus musculus with 16 samples.

Results

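The interferon-inducible GTPases described here are 9 genes chosen by name: the immunity-related GTPases Iigp1, Irgm1, Irgm2 and Igtp and the guanylate-binding proteins Gbp2, Gbp3, Gbp4, Gbp6 and Gbp7. All 9 were among the 19715 genes of the deposited matrix, and they were followed through every cell class the authors named and every library. Transcription of both families is switched on by interferon gamma, with IRF1 among the factors that carry the signal, and to a lesser degree by type I interferons. In macrophages and many other cells the proteins coat vacuoles that shelter bacteria and parasites and help to break them open. Among the immunity-related GTPases, Iigp1 is an effector that binds the vacuole, whereas Irgm1, Irgm2 and Igtp (also called Irgm3) are regulators that sit on the cell's own membranes and hold the effectors inactive there. The guanylate-binding proteins are larger, self-assembling GTPases that gather on the same vacuoles.

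The data were single-cell 3′ RNA profiles of NB9464D, a mouse neuroblastoma line, grown under the skin of male C57BL/6 mice that were 8 weeks old at inoculation and collected on day 28. Hosts were wild type (WT) or CD200R-/- (called KO). The genotype labels give CD200R-/-, whereas the growth protocol gives CD200-/-. CD200R restrains macrophages and other myeloid cells when it binds CD200. The genotype is that of the host, and the labels give the inoculated line no deletion. From each host genotype, tumors digested with 1 mg/mL collagenase gave CD45+ sorted leukocytes and total tumor cells. The labels list 16 samples in 4 groups of 4, sorted and total tumor cells of each host, but the cells carry 1 library name per group. Each group is therefore 1 library, no difference has a replicate check, and no p-value is given. The number of tumors behind each library is not given in the sources used here. Intervals are 95% counting intervals, and they cover counting error only.

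The libraries of sorted cells held 5219 (WT) and 4305 (KO) cells and those of total tumor cells 4955 and 5897, with 29200338 to 103877007 unique molecular identifiers (UMIs, counted molecules) each. The median cell had 4665 and 3127 UMIs in the sorted libraries and 19850 and 16276 in the tumor libraries, WT first. Cd200r1, the gene of the deleted receptor, had 2888 UMIs in WT and 0 in KO among sorted cells, and 76 and 5 among total tumor cells. Those 5 lay in the classes named neuroblastoma (3) and fibroblasts (2). Of 20182 barcodes, 113 occurred in more than 1 library. They label 307 cells (1.51%), 84 of them macrophages, and carry 554 member UMIs.

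The level of a gene in a class is its UMI count over all the cells of that class in 1 library, scaled to 1000000 UMIs of that class (CPM). In a 3′ assay a level does not scale with gene length, but priming differs between genes, so levels are compared between classes rather than between genes. A difference between hosts is a log2 ratio of KO to WT from which the ratio of the class's median gene, among genes with at least 50 UMIs, was subtracted. A member was called higher or lower where it had at least 20 UMIs in both libraries together and a ratio of at least 1.5-fold. There were 21 class comparisons with at least 50 cells in each library, 14 in sorted and 7 in total tumor cells.

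8 members lie on chromosomes 3, 5 and 11 (GRCm38, the same assembly as the mm10 of the submitters' processing notes). Gbp7 (chr3:142530342-142550149), Gbp3 (chr3:142560026-142573209) and Gbp2 (chr3:142620602-142638008) are neighbours on the forward strand. Gbp4 (chr5:105115767-105139586) and Gbp6 (chr5:105270702-105293698) are on the reverse strand. Irgm1 (chr11:48861968-48871683, reverse strand) is apart from Igtp (chr11:58199556-58207591) and Irgm2 (chr11:58199618-58222782), whose annotated extents overlap on the forward strand. Reads in that overlap cannot be told apart by position alone. Of the 50-base words in the last 500 bases of its coding transcripts, Gbp6 shared 77.8% with Gbp9, Gbp10 or Gm43302. Gbp4 shared 19.4% with other guanylate-binding proteins and Gm43302, Irgm1 3.96% with unrelated genes and Gbp3 3.25% with Gbp7. The other 5 members shared none. Gbp6, and less so Gbp4, is therefore uncertain as a single gene, since the handling of such reads is not given in the sources used here.

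RefSeq promoter windows (GRCm38.p6, 250 bases before to 50 after a start site) were matched for 6 of the 9 members; those of Iigp1, Gbp4 and Gbp6 were not matched. They are shown because the core of the interferon-stimulated response element, the site bound by interferon regulatory factors, lay close to the start in each. The core searched was GAAA, any 2 bases and GAAA again, on both strands, so that it reads TTTC, any 2 bases and TTTC on the other strand. All 6 members held it, in 6 of their 7 windows, against 3.44% of the 32851 windows of all genes. The lines below give the match in capitals with 40 bases before it and up to 20 after it, on the strand of the gene.
Gbp2, chr3:142620564-142620633: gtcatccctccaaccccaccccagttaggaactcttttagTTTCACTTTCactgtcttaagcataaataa
Gbp3, chr3:142559959-142560034: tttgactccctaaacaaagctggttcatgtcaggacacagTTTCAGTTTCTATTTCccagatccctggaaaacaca
Gbp7, chr3:142530243-142530312: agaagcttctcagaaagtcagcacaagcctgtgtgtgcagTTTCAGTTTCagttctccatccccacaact
Irgm1, chr11:48871421-48871490: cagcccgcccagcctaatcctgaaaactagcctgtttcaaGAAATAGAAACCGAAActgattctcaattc
Igtp, chr11:58199482-58199551: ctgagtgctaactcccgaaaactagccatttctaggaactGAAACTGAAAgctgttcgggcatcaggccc
Irgm2, chr11:58214873-58214942: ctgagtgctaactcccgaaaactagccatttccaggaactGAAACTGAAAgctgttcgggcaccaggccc
The 3 guanylate-binding proteins carried the core on the reverse strand and the 3 regulators on the forward strand. Gbp3 and Irgm1 each had 2 overlapping matches. The promoters of Igtp and Irgm2 were identical at 244 of 265 aligned bases (92.1%), whereas the other pairs were identical at 49.5% to 61.3%. A second element, the gamma-activated site of interferon gamma signaling, was searched as TTCNNNGAA, which reads the same on both strands. It was found in Igtp, Irgm2 and, with 2 matches, Gbp7, against 8.30% of all windows, and it overlapped no response element core. A match says only that these letters are present.

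**Figure D1:**
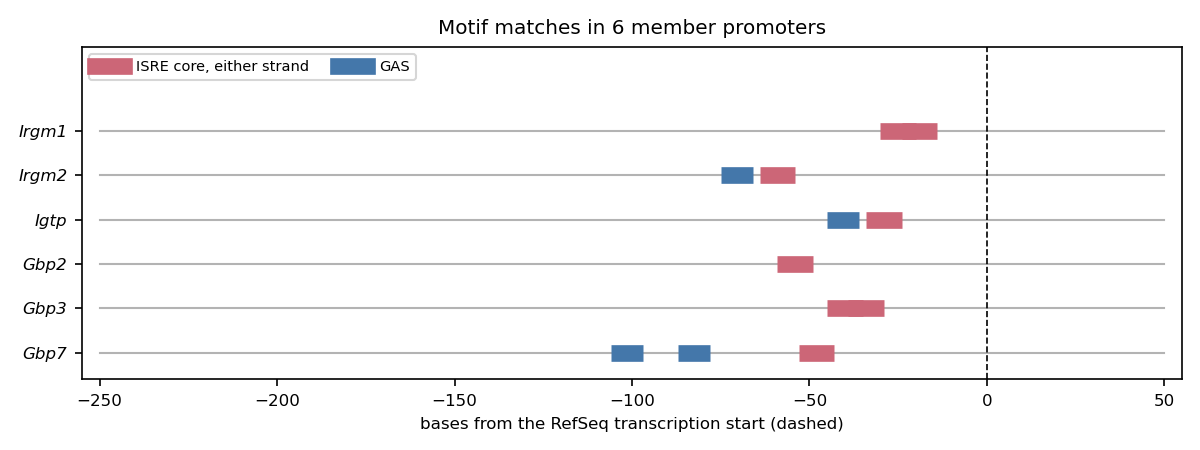
Motif matches in the promoter windows of 6 members, drawn to scale as bases from the RefSeq start site (dashed line); red bars are response element cores on either strand and blue bars gamma-activated sites. Each of the 6 members has a red bar between 64 bases and 15 bases before the start.

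Across the 50 class and library combinations with at least 50 cells, the summed level of the 9 members ran from 5.81 to 1059 CPM, with a median of 161. The authors' regulatory T class had the highest sum in 3 libraries, at 571 CPM in WT sorted, 1059 in KO sorted and 1025 in KO tumor cells. In WT sorted cells the CD8+ effectors (348 CPM), CD8 T cells (291), CD4 T cells (262) and M2 macrophages (248) came next, and their neighbouring intervals overlapped. In KO sorted cells the order was CD8+ effectors (580), CD8 T cells (555), M2 macrophages (547), CD4 T cells (443) and NK cells (434). M1 macrophages stood lower, at 77.4 CPM in WT and 223 in KO sorted cells, and the class named cancer stem cells was lowest in both sorted libraries (22.8 and 49.0). In the WT tumor library no T or NK class reached 50 cells. In that library B cells led at 101 CPM from 9 UMIs, and the interval of their level overlapped that of M1 macrophages (52.3).

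**Figure D2:**
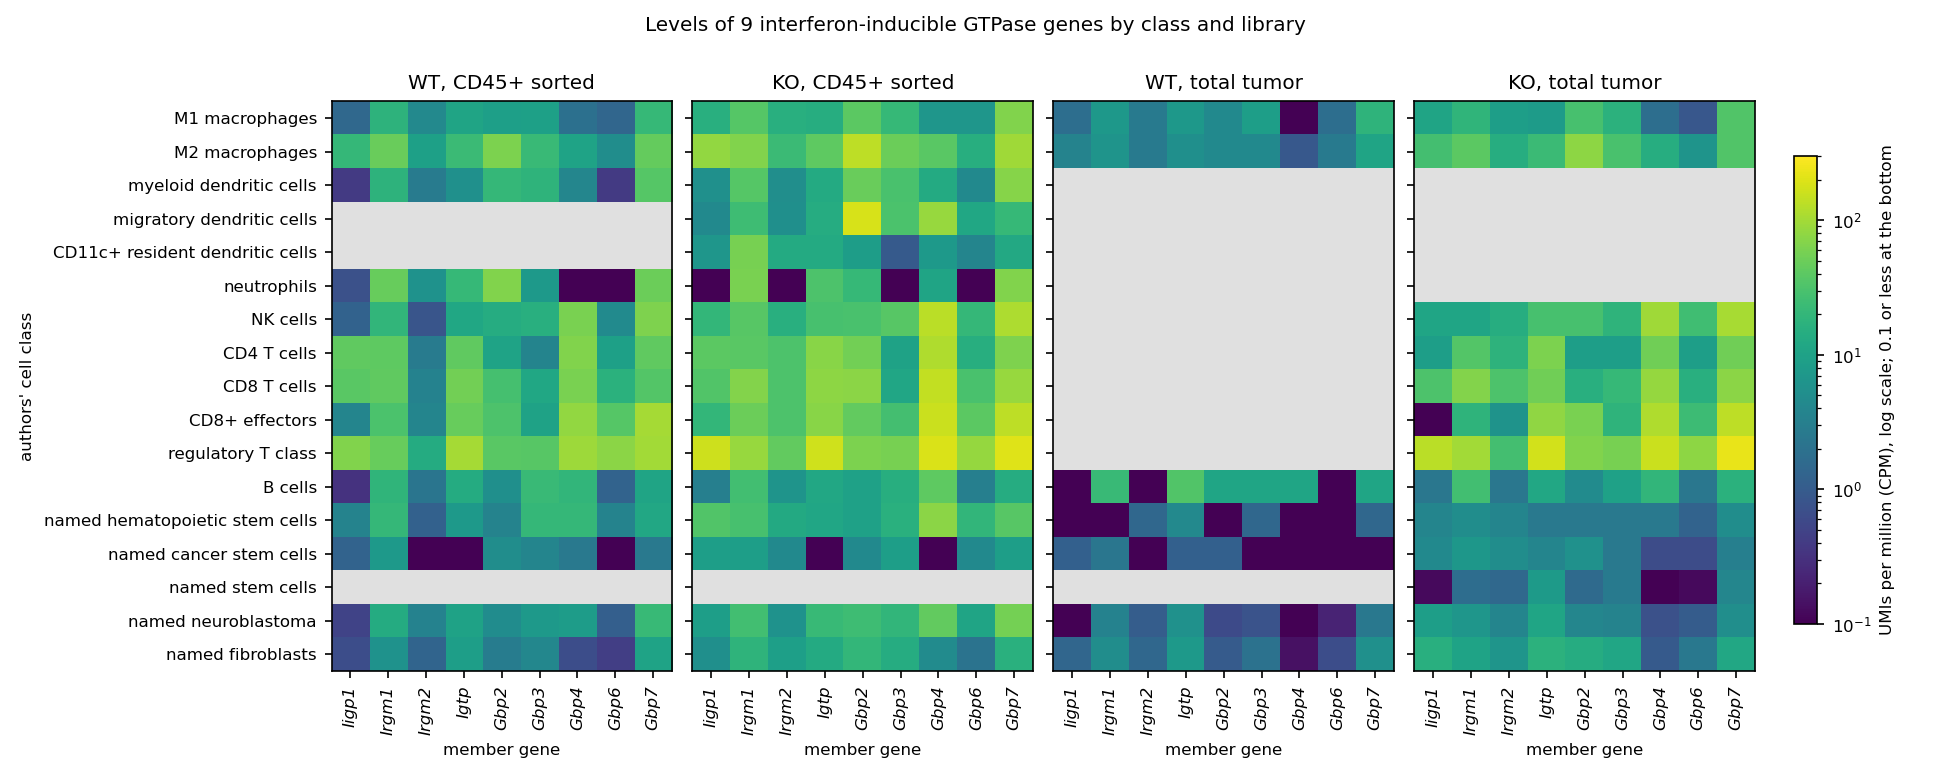
Level of each member (columns) in each authors' class (rows) in the 4 libraries, as CPM on a log colour scale; grey marks classes with under 50 cells, and values at or under 0.1 share the darkest colour. The regulatory T row is brightest in WT sorted, KO sorted and KO tumor cells, and the neuroblastoma and fibroblast rows of total tumor cells are brighter in KO than in WT.

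Members differed in which classes they favoured. Iigp1, the effector, was highest in the regulatory T class (66.1 CPM in WT and 165 in KO sorted cells) and was also high in CD4 T cells (43.0 and 40.4), CD8 T cells (38.8 and 33.9) and M2 macrophages (20.6 and 82.4). It was near its floor in WT sorted B cells (1 UMI, 0.320 CPM), myeloid dendritic cells (1 UMI) and NK cells (3 UMIs, 1.25 CPM). Gbp4 was highest in lymphocyte classes. It had 93.3 CPM in the regulatory T class, 83.2 in CD8+ effectors, 65.4 in CD4 T cells, 59.9 in NK cells and 59.7 in CD8 T cells of WT sorted tumors, but 1.92 in M1 macrophages and 0 UMIs in neutrophils, which allows up to 2.20 CPM (3 counts). Among WT sorted classes with at least 50 cells, Gbp2 was highest in neutrophils (66.7 CPM) and M2 macrophages (62.4). Other myeloid classes stood lower for Gbp2, with 20.9 in myeloid dendritic cells and 9.14 in M1 macrophages, under the regulatory T class (38.9). Its highest level was 187 CPM in the migratory dendritic cells of KO sorted tumors, apart from the next class, M2 macrophages at 134. Gbp6 was highest in the regulatory T class (73.9 CPM), apart from CD8+ effectors (35.8), and had 16.6 CPM in CD8 T cells, 9.35 in CD4 T cells and 4.58 in NK cells of the WT sorted library. Gbp7 ran from 2.53 CPM in the class named cancer stem cells to 102 in CD8+ effectors of the WT sorted library, and its other classes had at least 10.5.

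Irgm1, a regulator, was spread over lymphoid and myeloid classes. It lay between 41.1 and 48.8 CPM in M2 macrophages, the regulatory T class, neutrophils, CD8 T cells and CD4 T cells of the WT sorted library, and neighbouring intervals overlapped throughout that order. Igtp was highest in the regulatory T class (103 CPM, apart from CD8 T cells at 54.1) and lowest in myeloid dendritic cells (5.52) among classes with a UMI. Irgm2 ran from 13.6 CPM in the regulatory T class to 0.832 in NK cells among classes with a UMI. Gbp3 was highest in the regulatory T class (36.9 CPM), and its next classes were M2 macrophages (22.5) and B cells (22.4).

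The levels of all member pairs were positively correlated over the 50 combinations. Pearson's r of log2(CPM + 1) ran from 0.53 for Igtp with Gbp3 to 0.85 for Gbp4 with Gbp6, a pair that shares transcript sequence. The points share libraries and depth, so these values are a description. Among 12388 other genes, the 10 whose level was most like the members' included Tnfaip3 (r 0.92), B2m (0.92), Cast (0.91), Ccnd2 (0.91), H2-T22 (0.90), Ifi47 (0.90), Traf1 (0.90), Spn (0.90) and Usp25 (0.90). With a pseudocount of 10 CPM in place of 1, 7 of these 10 stayed in the list. Ifi47, another immunity-related GTPase, comes from the pathway lists, and B2m and H2-T22 belong to MHC class I.

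Between hosts, 126 of 189 member comparisons had at least 20 UMIs. Members were at least 1.5-fold higher in KO in 84 of them and lower in 8. Of these 126, 23 had under 10 UMIs in the WT library and reached the minimum through KO, so the counts are a description. Over all genes tested, 16.8% to 36.1% of a comparison's genes were higher by the same rule and 12.2% to 27.7% lower. Irgm2 was higher in 12 of 13 comparisons, Gbp4 in 11 of 13, Gbp2 in 12 of 16 and Iigp1 in 9 of 11. Irgm1 was higher in 8 of 17 and Igtp in 6 of 15. These shares are not compared between members, since a member that is low in WT passed the minimum more often through KO. The ratios of Irgm2 and Igtp, the pair with the most similar promoters, were in either order. In NK cells Irgm2 was at 3.89 (1.92 to 7.0, from 2 and 31 UMIs) and Igtp at 0.96 (0.28 to 1.67). In CD8 T cells of sorted tumors Irgm2 had 5 UMIs in WT and 31 in KO, a ratio of 2.67 (1.30 to 4.39), whereas Igtp had 78 and 74 (-0.04, -0.52 to 0.44). In myeloid dendritic cells Irgm2 was at 0.65 and Igtp at 1.04, and in the sorted class named neuroblastoma at 0.49 and 0.85, with intervals that overlapped. The part of reads from their overlap was not tested.

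**Figure D3:**
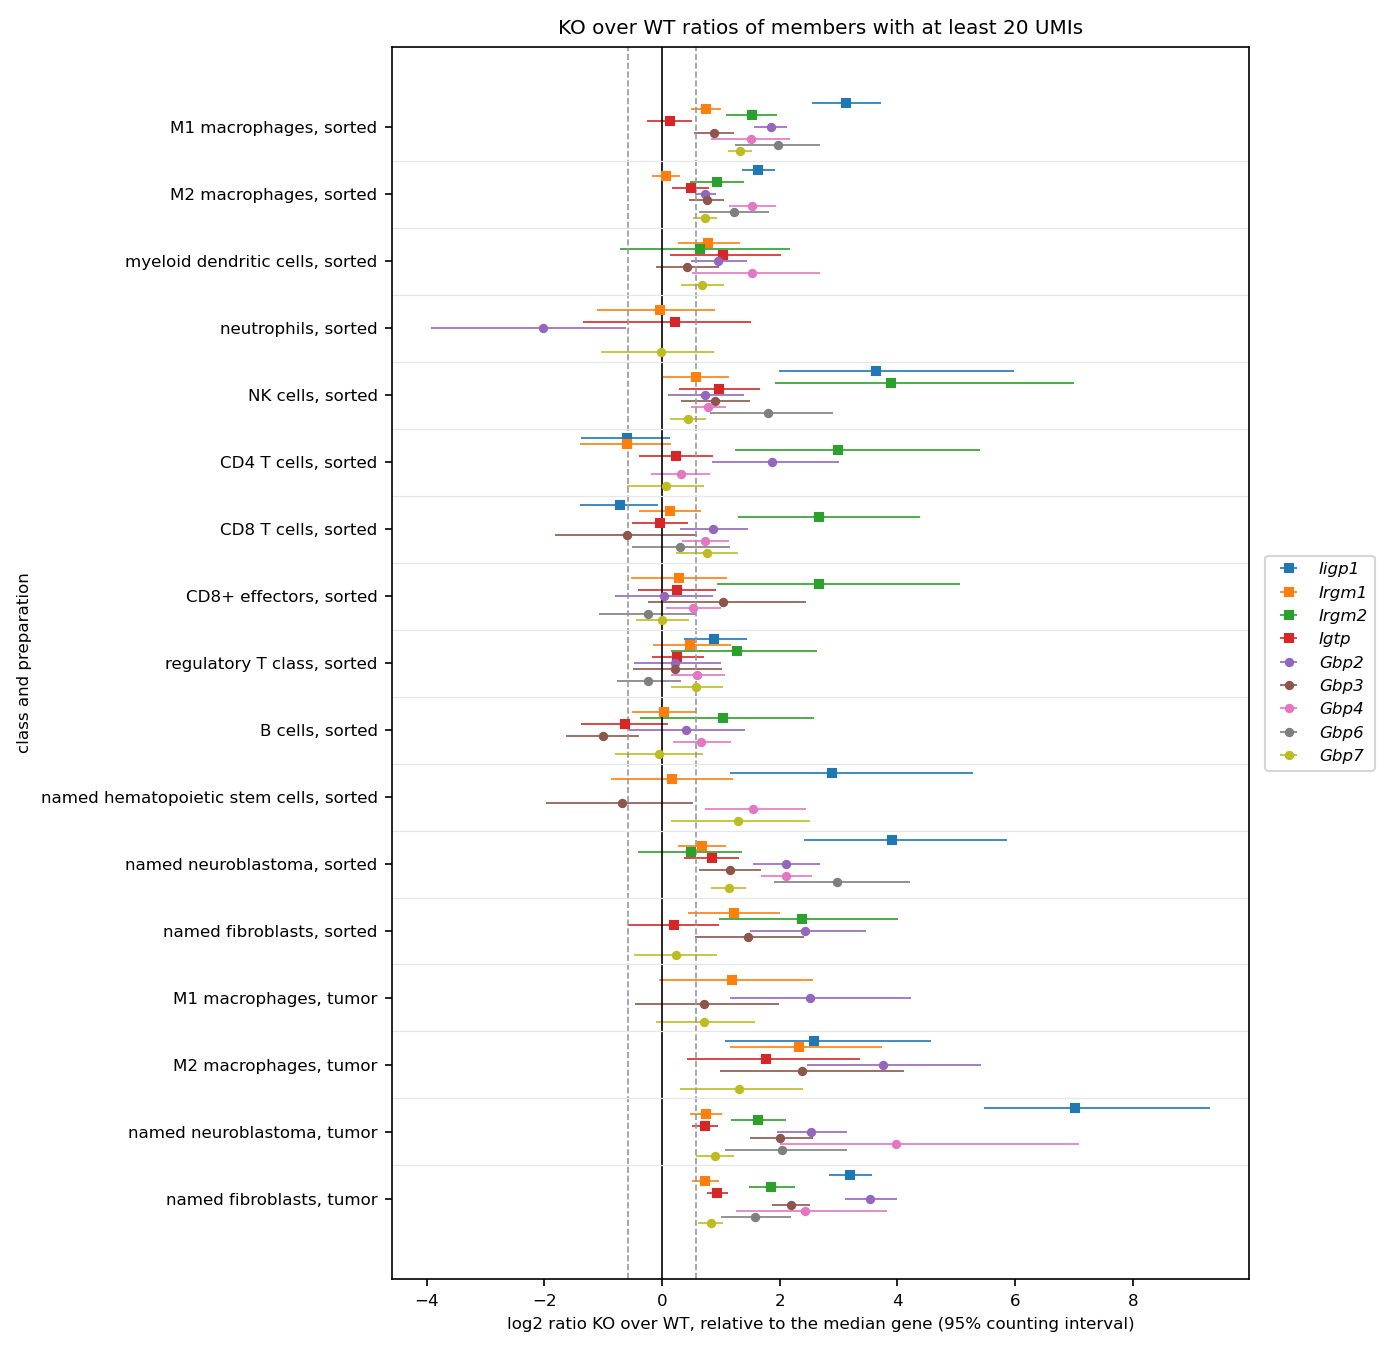
Log2 ratio of KO to WT relative to the median gene for each member with at least 20 UMIs, by class and preparation, with 95% counting intervals; squares are immunity-related GTPases, circles guanylate-binding proteins, and dashed lines mark 1.5-fold. All points of the 4 tumor rows lie to the right of the 1.5-fold line, and the points of the sorted CD4 T, CD8 T and B cell rows lie on both sides of 0.

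In M1 macrophages of sorted tumors (950 WT and 350 KO cells), 8 of 9 members were higher in KO and 0 lower, where 21.7% of all genes tested were higher and 23.4% lower. Iigp1 went from 37 UMIs (1.48 CPM) in WT to 80 (15.8 CPM) in KO, a log2 ratio of 3.12 (2.54 to 3.72). Gbp2 had 9.14 CPM in WT and 40.5 in KO (1.85, 1.57 to 2.13), and Gbp7 21.3 and 65.3 (1.32, 1.12 to 1.52). The intervals of the levels did not overlap for these 3 genes. Gbp6 was at 1.97 and Irgm2 at 1.52. Igtp was the exception, with 10.8 and 14.6 CPM and a ratio of 0.13 (-0.26 to 0.51). The median member ratio was 1.51, and that of all genes 0.01. The median M1 cell had 25402 UMIs in WT and 10685 in KO, and summed macrophage markers, all 8 above 0, were 29059 and 15914 CPM. Their part in the difference was not tested. After thinning every cell to 2000 UMIs, 13.6% of WT (120 of 881 cells) and 29.5% of KO cells (83 of 281) had a UMI of at least 1 member, whereas unthinned shares were 62.8% and 62.0%. Thinning left out 69 shallower cells in each library.

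In M2 macrophages of sorted tumors (627 and 411 cells), 7 of 9 members were higher and 0 lower, against 19.9% and 21.6% of all genes. Iigp1 had 20.6 CPM in WT and 82.4 in KO (1.63, 1.36 to 1.91), and Gbp4 10.3 and 38.3 (1.53, 1.14 to 1.94). Gbp2 started from a higher level, 62.4 CPM, and had 134 in KO (0.74, 0.56 to 0.92). Irgm1 had 48.8 and 65.7 CPM, a ratio of 0.07 (-0.17 to 0.30), and Igtp was at 0.49, under 1.5-fold. Gbp3, Gbp6, Gbp7 and Irgm2 lay between 0.73 and 1.22. The share of cells with a member UMI at 2000 UMIs was 25.6% in WT and 40.4% in KO, against 57.9% and 64.7% unthinned. In B cells, where members were low, the thinned shares were 16.5% and 20.4%.

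**Figure D4:**
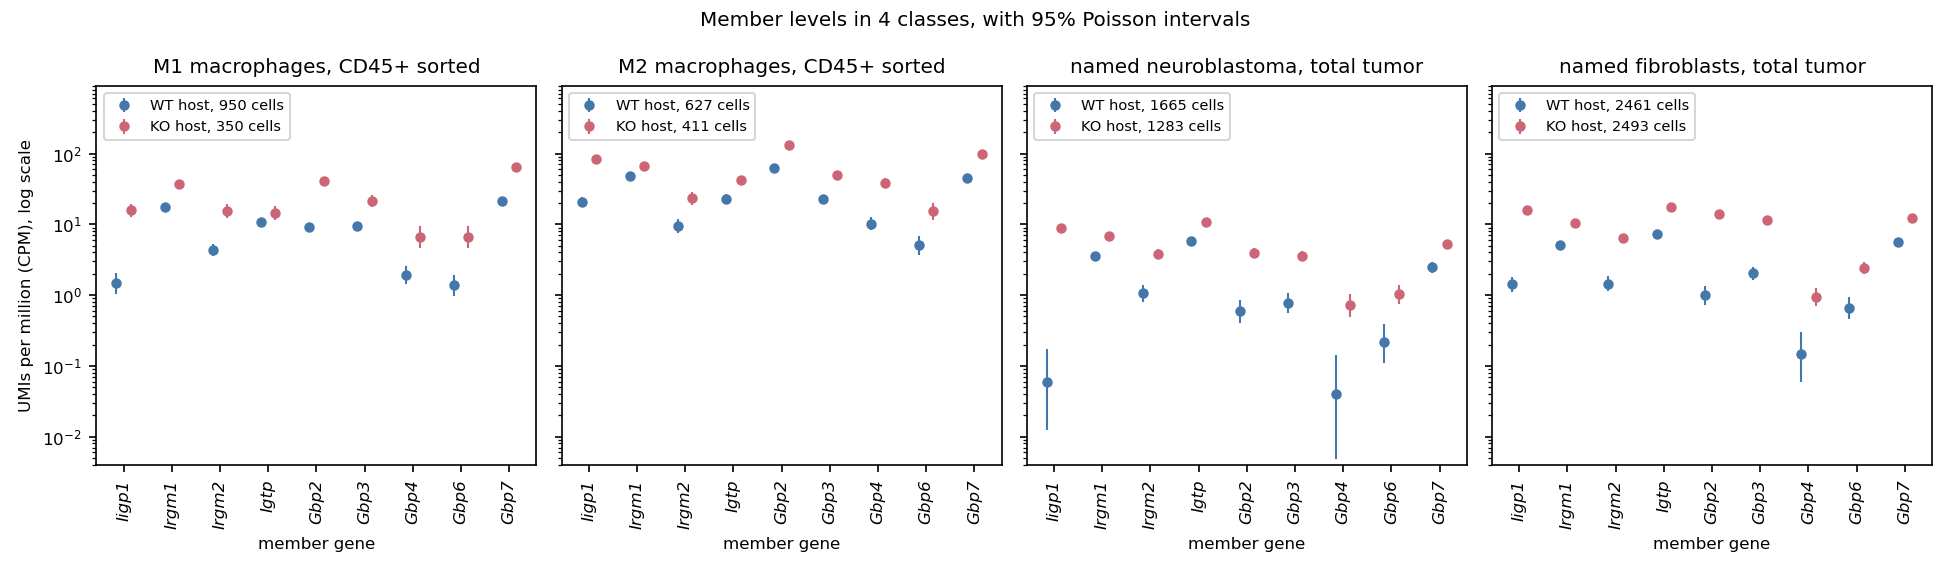
Level of each member in WT (blue) and KO (red) hosts in 4 classes, as CPM on a log axis with 95% Poisson intervals. The red point lies above the blue point for all 9 members in each panel, least so for Igtp in M1 and Irgm1 in M2 macrophages.

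Macrophages of the total tumor libraries were few, with a median of 7618 and 2833 UMIs in M1 and 13493 and 3261 in M2 cells. Only 4 members reached 20 UMIs in M1 macrophages (110 and 203 cells), and all 4 were higher in KO, against 21.5% of all genes (12.6% lower). Of these only the interval of Gbp2 lay above 0 (5 and 33 UMIs, 2.52, 1.15 to 4.23). Gbp2 and Irgm1 (8 and 21 UMIs) had under 10 UMIs in WT and passed the minimum through KO. In M2 macrophages (81 and 168 cells) 6 members reached 20 UMIs and all 6 were higher, against 27.8% (20.8% lower). All but Gbp7 (12 and 32 UMIs) had 4 to 7 UMIs in WT and passed the minimum through KO, so this count is a description. Gbp2 was again highest in ratio, with 4.50 CPM in WT and 77.5 in KO (3.76, 2.47 to 5.42). The WT M2 class did not match its name well. Its summed macrophage markers were 2197 CPM against 6785 in KO, and its fibroblast markers 1383 against 383, with all 6 above 0 in WT. Y-linked genes, transcribed by the male hosts, were at 19.8 CPM in it and at 82.8 in KO. The part of these differences in the ratios cannot be told apart from that of the genotype.

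In NK cells of sorted tumors (186 and 287 cells), 7 of 9 members were higher in KO, against 24.9% of all genes (27.5% lower). Iigp1 had 3 and 39 UMIs (1.25 and 19.9 CPM, 3.64, 1.98 to 5.97). Gbp4, already at 59.9 CPM in WT, had 132 in KO (0.78, 0.48 to 1.09), and Gbp7 was at 0.43. Macrophage markers in the NK class were 2503 CPM in WT and 190 in KO, all 8 above 0, and their part in the ratios was not tested. Of myeloid dendritic cells (117 and 176 cells), 7 members could be compared and 6 were higher, against 17.8% (17% lower), led by Gbp4 (1.53, 0.51 to 2.69). Neutrophils (432 and 87 cells) had 4 members with 20 UMIs, 0 higher and 1 lower, where 33% of all genes were higher and 27.1% lower. Gbp2 was the lower member, with 91 UMIs in WT (66.7 CPM) and 4 in KO (21.6 CPM), a ratio of -2.02 (-3.93 to -0.62). The median of the 4 was -0.02, and 0.37 when scaled by total UMIs.

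T cells were mixed. In CD4 T cells (248 and 197 cells) 2 of 7 members were higher and 2 lower, where 27.3% of all genes were higher and 27.3% lower. Irgm2 (3 and 19 UMIs, 3.00, 1.23 to 5.40) and Gbp2 (10.3 and 53.8 CPM, 1.87, 0.85 to 3.01) were higher, whereas Iigp1 and Irgm1 were both at -0.60 with intervals that included 0. In CD8 T cells (239 and 245 cells) 4 of 9 were higher and 2 lower, against 26% of all genes higher and 25.4% lower. Iigp1 had 38.8 CPM in WT and 33.9 in KO there, a relative ratio of -0.72 (-1.39 to -0.08). Scaling by total UMIs adds the ratio of the median gene, -0.02 to 0.53 over the sorted comparisons, and by that scaling 0 members were lower in CD4 or in CD8 T cells. CD8+ effectors (150 and 175 cells) had 2 of 8 members higher and 0 lower, against 25.5% and 23.7%. The count of higher members was thus near the background. These 2 were Irgm2 (3 and 21 UMIs, 2.68, 0.93 to 5.06) and Gbp3 (8 and 18 UMIs, 1.04, -0.24 to 2.45). Both had under 10 UMIs in WT and passed the minimum through KO. In B cells (972 and 943 cells) 2 of 7 were higher and 2 lower, against 24.5% higher and 27.7% lower, so these counts were near the background. Gbp3 was lower there (22.4 and 15.2 CPM, -1.0, -1.64 to -0.39) and Gbp4 higher (19.2 and 41.6 CPM, 0.67, 0.19 to 1.16).

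In the regulatory T class (94 and 396 cells), which had the highest levels, 3 of 9 members were higher and 0 lower, against 24.2% and 26.1% of all genes. Iigp1 had 66.1 and 165 CPM (0.89, 0.37 to 1.45), Irgm2 13.6 and 44.2 (1.27, 0.15 to 2.63) and Gbp4 93.3 and 191 (0.60, 0.16 to 1.07). Gbp6 had 73.9 and 84.7 CPM, a ratio of -0.23 (-0.76 to 0.32). Scaled by total UMIs, 8 of 9 were higher. With cells that carried markers of 2 lineages removed, 1 was higher and 1 lower. The class was also made up differently: summed regulatory T markers (Foxp3, Il2ra, Ctla4, Ikzf2) were 1123 CPM in WT and 4829 in KO, and B cell markers 1372 and 415. Their part in the ratios was not tested. Cells with UMIs of at least 3 members at 2000 UMIs were 8.54% in WT and 22.3% in KO.

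2 sorted classes went against their names. The class named neuroblastoma in sorted cells (205 and 171 cells) had macrophage markers at 9166 and 1760 CPM, NK markers at 522 and 1254 and Y-linked RNA at 95.1 and 145 CPM, and 8 of its 9 members were higher, against 25.9% of all genes (26.4% lower). The class named hematopoietic stem cells (445 and 457 cells) had B cell markers at 8102 and 5194 CPM, and 3 of 5 members were higher and 1 lower, against 25.3% higher and 25.3% lower. The class named fibroblasts in sorted cells (164 and 78 cells) had fibroblast markers at 3474 and 3448 CPM and macrophage markers at 890 and 59.1, and 4 of 6 members were higher and 0 lower, against 26.7% and 26.6%. Gbp2 led there with 13 and 38 UMIs (2.43, 1.49 to 3.46). In 4 further comparisons 0 members reached 20 UMIs: the class named cancer stem cells in sorted cells (36.1% of all genes higher and 22% lower) and, in total tumor cells, B cells (30.7% and 15.3%) and the classes named hematopoietic stem cells (21% and 19.7%) and cancer stem cells (26.8% and 12.2%).

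In the total tumor libraries, the comparisons with the most members at 20 UMIs lay outside the leukocytes. The median member ratio of M2 macrophages in these libraries was 2.35, from 6 members. All but Gbp7 of these 6 passed the minimum through KO, so this median is not ranked against those of other classes. The classes the authors named neuroblastoma (1665 WT and 1283 KO cells) and fibroblasts (2461 and 2493 cells) shared their markers: both carried fibroblast collagens and Dcn (1032 to 3176 CPM summed, all 6 above 0) and, of 7 neuroblastoma markers, Hand2, Mycn and Ddc (168 to 342 CPM summed), with Phox2a, Dbh and Th at 0 or not listed. The 4 Y-linked genes (Ddx3y, Eif2s3y, Kdm5d, Uty) were at 0.139 and 0.503 CPM in the neuroblastoma class and 0.332 and 1.12 in the fibroblast class, against 19.8 to 458 CPM in 33 leukocyte combinations and 95.4 and 167 CPM in endothelial cells of the tumor libraries. At most 1.44% of their cells had a Y-linked UMI. Both classes thus nearly lacked the Y-linked RNA that the hosts' cells carried.

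In these classes all 9 members had at least 20 UMIs, and all 9 were higher in KO hosts, where 16.8% (neuroblastoma) and 19.6% (fibroblasts) of all genes were higher and 15.7% and 16.3% lower. Both Gbp4 comparisons and the Iigp1 comparison of the neuroblastoma class had under 10 UMIs in WT. The median member ratio was 2.01 and 1.86, and that of all genes 0.01 in both. Iigp1 had 3 UMIs in the WT neuroblastoma class (0.0596 CPM) and 370 in KO (8.87 CPM), a ratio of 7.02 (5.46 to 9.31). In the fibroblast class it had 68 (1.41 CPM) and 747 (15.8 CPM), a ratio of 3.19 (2.83 to 3.57). The WT and KO intervals of the Iigp1 level did not overlap in either class. At 2000 UMIs per cell, 2.76% of WT and 5.22% of KO cells of the neuroblastoma class had a UMI of at least 1 member, and 4.76% and 11.0% of the fibroblast class (unthinned 30.4%, 40.1%, 29.1% and 44.1%).

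Among the guanylate-binding proteins the ratios ran from 0.83 to 3.98. Gbp2 had 30 and 164 UMIs in the neuroblastoma class (0.596 and 3.93 CPM, 2.53, 1.96 to 3.14) and 48 and 670 in the fibroblast class (0.997 and 14.2 CPM, 3.54, 3.12 to 3.99). Gbp3 was at 2.01 (1.49 to 2.56) and 2.19 (1.88 to 2.51). Gbp4 and Gbp6 were low, at most 2.44 CPM in KO, with ratios of 1.58 to 3.98. Gbp7 (2.49 and 5.61 CPM in WT) had the smallest ratios of the family, 0.90 (0.58 to 1.23) and 0.83 (0.62 to 1.04). Of the regulators, Irgm2 was at 1.63 (1.17 to 2.10) and 1.86 (1.48 to 2.25). Irgm1 was at 0.74 in both classes and Igtp at 0.73 and 0.94.

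The counts were repeated without cells that carried macrophage-marker or Y-linked UMIs. Removing every cell with a UMI of 1 of 8 macrophage markers left 1454 and 1041 cells of the neuroblastoma class and 2189 and 2079 of the fibroblast class, and all 9 members were higher in both, with medians of 1.93 and 1.83. With cells carrying a Y-linked UMI removed (1658, 1268, 2450 and 2457 left), 8 of the 8 members that kept 20 UMIs were higher in the neuroblastoma class, with a median of 1.71, and 9 of 9 in the fibroblast class, with a median of 1.81. Both filters were chosen after the data were seen. The class named stem cells of the KO tumor library (218 cells) had members at 19.5 CPM summed, against 44.8 in the neuroblastoma and 91.1 in the fibroblast class of that library. Its Iigp1 was at 0.123 CPM (1 UMI), against 8.87 and 15.8, its Gbp2 at 1.60, against 3.93 and 14.2, and its Igtp at 7.89, against 10.9 and 17.3. Free RNA was not measured, and its part was not tested.

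The member RNA was concentrated in few cells. Of the KO cells, 86 of the neuroblastoma class (6.70%) and 210 of the fibroblast class (8.42%) had an Iigp1 UMI, against 3 and 28 (1.14%) of the WT cells. The highest single cells held 83 and 49 Iigp1 UMIs in KO and 10 in the WT fibroblast class, and 8 cells held at least 50% of the Iigp1 UMIs of the KO neuroblastoma class. Gbp2 was alike, with a highest cell of 71 UMIs in the KO fibroblast class and 11 cells holding at least 50%. Igtp was more even: its highest KO cells held 25 and 34 UMIs, and 75 cells of the fibroblast class held at least 50%. Counting how many of the 9 members had a UMI in each cell, 124 of the 3776 KO cells of both classes had at least 5, against 14 of 4126 WT cells. The median depth of these cells (21016 and 19604 UMIs) was close to that of the others (21772 and 21620). The members of a cell are a range, not a type: 62 KO cells had 4 members and 41 had 5. All 9 members were found in 10 KO cells, and the most found in a WT cell was 8, in 2 cells.

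**Figure D5:**
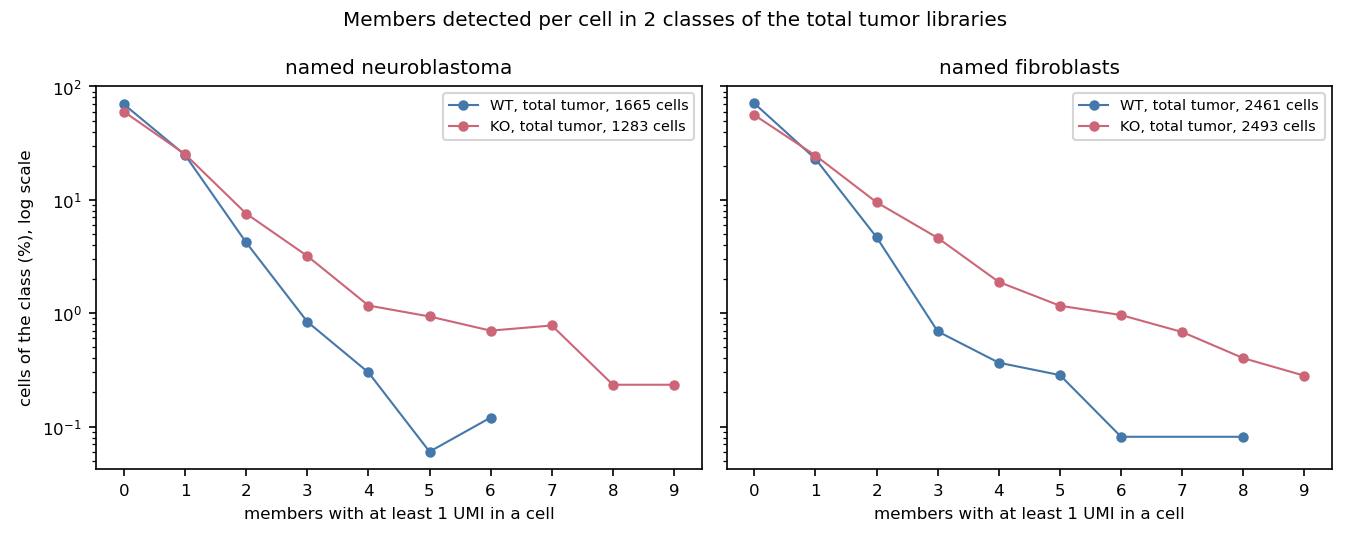
Share of cells, on a log axis, by the number of members with at least 1 UMI in the cell, for the neuroblastoma (left) and fibroblast (right) classes of WT (blue) and KO (red) total tumor cells; numbers with no cell are not drawn. The curves start close together at 0 and 1 members and part from 2 members on, and 9 members are reached in KO cells only.

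The 124 KO cells with at least 5 members also had more RNA of genes that did not choose them. Irf1 was at 126 CPM in them (114 to 140) and 31.4 in the other 3652 cells. Cxcl10, a chemokine induced by interferons, was at 528 and 32.7 CPM, and Cxcl9, which draws T cells, at 42.5 and 0.744. Among class I genes B2m was at 755 and 219 CPM, H2-D1 at 309 and 85.4 and H2-K1 at 80.2 and 9.04. Other immunity-related and guanylate-binding genes went the same way, with Ifi47 at 36.0 and 0.954 CPM and Gbp5 at 16.3 and 0.128. Of these genes, B2m was found in 99.2% of the 124 cells, H2-D1 in 93.5%, Irf1 in 74.2% and Cxcl10 in 50.8%. Ifi47 (40.3%), H2-K1 (34.7%), Gbp5 (16.1%) and Cxcl9 (12.9%) had a median of 0 UMIs in the 124 cells. Hand2 was at 269 and 292 CPM, whereas Col1a1 was at 880 and 511 and Dcn at 815 and 268. The median cell of both ranges had 0 UMIs of C1qa, Ptprc, Cd3e and Nkg7. The summed levels of all 4 were higher in the 124 cells, at 20.1 and 2.50 CPM for C1qa, 13.6 and 2.78 for Ptprc, 2.38 and 0.279 for Cd3e and 6.46 and 0.942 for Nkg7. C1qa and Ptprc were each found in 5.65% of the 124 cells. Lyz2 was at 43.5 and 8.40 CPM, in 17.7% of the 124 cells, and Y-linked RNA was at 3.40 and 0.744 CPM. Their part in these levels was not tested. The 14 WT cells had Cxcl10 at 85.4 CPM (58.4 to 121), against 10.5 in the other 4112 WT cells. Cxcl10 was found in 28.6% of the 14 cells. B2m was at 392 CPM in the 14 and 103 in the other WT cells, and H2-D1 at 125 and 37.4. H2-K1 was at 32.0 and 29.9 CPM, and Cxcl9 had 0 UMIs in the 14 cells, against 0.632 CPM in the others.

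Without the cells of 5 or more members, ratios were smaller but members differed in how much. The exception was Gbp4 in the fibroblast class, at 2.48 (0.34 to 5.67, from 2 and 13 UMIs) without them and 2.42 with them. In the fibroblast class Iigp1 was then at 2.73 (2.16 to 3.35), Gbp2 at 1.98 (1.48 to 2.51) and Gbp3 at 1.57 (1.18 to 1.97), whereas Igtp was at 0.22 (0.01 to 0.44) and Irgm1 at 0.36 (0.10 to 0.61). In the neuroblastoma class Igtp was at -0.07 and Irgm1 at 0.15, with intervals that included 0. Since the cells were left out by the members themselves, this is a description.

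Genes that act with the members were counted from 4 lists. Read beside the shares of all genes given above (16.8% to 21.7% higher and 15.7% to 23.4% lower in the 4 classes described), the lists differed between classes. Of other GTPases of the 2 families, in the fibroblast class of total tumors 8 of the 8 with 20 UMIs were higher, led by Gbp5 (4 and 49 UMIs, 3.35) and Tgtp2 (2.54), and in the neuroblastoma class 5 of 6, led by Gm4951 (2 and 108 UMIs, 5.83) and F830016B08Rik (3.98). In sorted M1 macrophages 7 of 11 were higher and 1 lower, led by Gbp5 (2.71) and Gm4951 (2.41), with 9930111J21Rik1 lower (-0.69). In sorted M2 macrophages 2 of 12 were higher (Tgtp2 1.07, Gbp5 0.89) and 2 lower (9930111J21Rik1 -0.77, Gm5431 -0.74), near the 19.9% and 21.6% of all genes. The median of this list was 0.25 there, against 0.39 for the interferon gamma list, and -0.27 in the sorted regulatory T class. In tumor M1 macrophages 0 of 4 were higher (21.5% of all genes). In tumor M2 macrophages 2 of 2 were higher (27.8%), and in the sorted class named neuroblastoma 6 of 8 (25.9%).

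The next list was interferon gamma signaling (ligand, receptor, kinases and factors). In sorted M1 macrophages 5 of 10 were higher, led by the kinase Jak2 (1.63) and Irf1 (1.31), and Ifng itself was lower (77 and 7 UMIs, -1.45). In M2 macrophages 3 of 10 were higher, among them Jak2 (1.36) and Irf1 (0.60), and Ifng was lower (-1.02). Ifng was highest in CD8+ effectors and NK cells, and marked doublets were 10.0% of WT and 4.30% of KO sorted cells. The part of lymphocyte RNA in the Ifng of these macrophage classes was not tested. In the neuroblastoma and fibroblast classes of total tumors 2 and 3 of 9 were higher, with Irf8 (3.57 and 1.98) and Irf1 (1.21 and 1.34) first. The shares of all genes were 16.8% and 19.6% there, and the medians of this list only 0.22 and 0.24. Of 7 type I interferon genes, 4 were higher in M1 (Stat2 1.67, Usp18 1.40), 2 in M2 macrophages (Stat2 0.84, Tyk2 0.72, with Ifnar2 lower at -1.09) and 2 in each tumor class (Usp18 2.82 and 1.31, Irf7 1.09 and 1.53). The counts of the 16 partners in cell-autonomous defense were mostly near those shares of all genes. In M1 macrophages 1 was higher (Traf6 0.99) and 5 lower, first Gabarapl2 (-0.96) and Casp1 (-0.91), and in M2 macrophages 0 were higher and 4 lower, with Gabarapl2 at -1.22 and Casp1 at -1.19. In the neuroblastoma and fibroblast classes 3 were higher, led by the DNA sensor Aim2 (2.95 and 2.80) and Casp4 (1.13 and 1.54), and 2 lower, Casp1 (-3.68 and -3.52) and the pore-forming Gsdmd (-1.41 and -1.22). In tumor M2 macrophages, where 27.8% of all genes were higher, 6 of 14 partners were higher and 1 lower. Of the interferon gamma list, 7 of 9 were higher in that class. In the sorted class named neuroblastoma 8 of 10 of that list were higher and 1 lower (25.9% and 26.4% of all genes). The sorted regulatory T class had 1 of 10 higher and 4 lower (24.2% and 26.1%).

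Ifng, the inducer of the family, was made by few classes. Among classes with at least 50 cells it was highest in CD8+ effectors (252 CPM in WT and 231 in KO sorted cells) and NK cells (122 and 142), and in KO tumor NK cells (231). Over whole libraries it had 943 UMIs in WT sorted and 670 in KO sorted cells (15.1 and 22.9 CPM), and 8 and 100 UMIs in WT and KO tumor cells (0.0775 and 0.963 CPM). The tumor libraries also differed in their NK cells (12 in WT and 79 in KO) and CD8+ effectors (10 and 61), and in these totals fewer Ifng-expressing cells and less Ifng RNA per cell cannot be told apart.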

How the data were processed

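Single-cell 3′ RNA libraries of WT and CD200R-/- hosts were analysed as 4 libraries. The deposited matrix holds, as made by the authors, the natural log of 1 plus a gene's UMIs per 10000 UMIs of its cell, and the deposited cell table gives each cell's total UMI count, gene number, group and class. Cell Ranger 6.0.1, Seurat 4.0.5 and mm10 appear in the submitters' processing notes, with no role given. Inverting the log gave whole UMIs for all 60957742 values above 0 (within 0.01), and sums equal to the deposited count in all 20376 cells. Counts were summed per class and library (Python 3.11.15, SciPy 1.17.1), because cells are not replicates. Levels have exact Poisson intervals, ratios conditional binomial intervals and shares Clopper-Pearson intervals, all at 95%. A count of 0 was replaced by 3 counts for a bound. Thinning used 2000 UMIs and seed 1. No cells were removed as doublets: where a doublet was a cell with 3 or more detected markers for each of 2 lineages, 10.0%, 4.30%, 4.62% and 2.22% of the libraries' cells were marked, and their removal was an alternative. Scripts were tested on simulated data. Named genes were all 9 members, the 2 genes of each list with the largest ratio in each direction, the 10 genes most like the members, and markers a result turns on; further genes of the cells with at least 5 members were chosen after values were seen. Members and lists were chosen with earlier results of these data known. Some listed genes are not reported here. Alternatives changed scaling, weighting, depth, filters, minimum UMIs, fold, pseudocount and macrophage classes. Positions are from GENCODE M21.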

Additional observations from a re-analysis of the deposited data

How the results depend on the processing

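Over 14 alternatives, 446 of 519 class counts and medians moved by no more than 1.5 times or the counting interval, and 73 moved further. Of these 0 were labelled reversed, but the neutrophil median changed sign, from -0.02 to 0.37, when scaled by total UMIs. Of 1035 values of single members, 942 moved by less than their interval. Below, classes are of sorted cells unless called tumor, and the main value follows in brackets. Scaled by total UMIs, members higher were 1 (0) in neutrophils, 4 (2) in CD4 T cells, 5 (2) in CD8+ effectors and 8 (3) in the regulatory T class, members lower were 0 in CD4 T, CD8 T and B cells (2 each) and in the class named hematopoietic stem cells (1), and medians were 0.37 (-0.02) in neutrophils, 0.91 (0.48) in the regulatory T class and 2.70 (2.35) in tumor M2 macrophages. With equal weight per cell, members lower were 0 (2) in CD4 and in CD8 T cells and 1 (0) in CD8+ effectors, and the regulatory T class had 1 higher (3) and a median of 0.11 (0.48). With marked doublets removed, 1 (2) was lower in CD4 and in CD8 T cells, and the regulatory T class had 1 higher (3), 1 lower (0) and a median of 0.15 (0.48). The stricter cell filter gave 1 lower (2) in CD4 T cells, 1 higher (2) in B cells, 1 higher (3) and 0 lower (1) in the class named hematopoietic stem cells and a median of 2.81 (2.35) in tumor M2 macrophages. Without shared barcodes 1 (2) was lower in CD8 T cells. With macrophage classes pooled, 7 (4) were higher in the tumor. With at least 50 UMIs, members higher were 0 (2) in CD4 T cells and CD8+ effectors, 1 (2) in B cells, 1 (3) in the class named hematopoietic stem cells, 2 (4) in that named fibroblasts, and 1 in tumor M1 (4) and M2 (6) macrophages, whose median was 3.76 (2.35); members lower were 1 (2) in CD8 T cells and 0 (1) in the class named hematopoietic stem cells. With no minimum, members higher were 4 (2) in B cells, 6 (3) in the class named hematopoietic stem cells, 7 (4) in that named fibroblasts and 3 (0) in that named cancer stem cells, and in the tumor 3 (0) in the class named hematopoietic stem cells and 4 (0) in that named cancer stem cells; members lower in the tumor were 1 (0) in M1 macrophages, 2 (0) in B cells and 1 (0) in the class named hematopoietic stem cells. At 2-fold, members higher were 3 (7) in M2 macrophages and in NK cells, 2 (6) in myeloid dendritic cells, 1 (4) in CD8 T cells, 1 (3) in the regulatory T class, 1 (2) in B cells and 2 (4) in tumor M1 macrophages; members lower were 0 (2) in CD4 and in CD8 T cells, 1 (2) in B cells and 0 (1) in the class named hematopoietic stem cells. Thinned to 2000 UMIs, which leaves fewer members with 20 UMIs, members higher were 5 (8) in M1 macrophages, 2 (6) in myeloid dendritic cells, 1 (2) in CD8+ effectors and B cells, 1 (3) in the class named hematopoietic stem cells, 3 (8) in that named neuroblastoma and 0 (4) in that named fibroblasts, and in the tumor 0 in M1 (4) and M2 (6) macrophages and 1 (9) in the class named neuroblastoma, where Igtp alone kept 20 UMIs and the median was 0.70 (2.01); members lower were 1 (2) in CD4 T and B cells, 0 (2) in CD8 T cells and 0 (1) in the class named hematopoietic stem cells. Causes other than the number of members and cells left were not tested. For 7 comparisons thinning or the stricter filter left under 50 cells and gave no value. No paired analysis was possible because the cells carry 1 library name per group and no replicate number. Depth limits members under 20 UMIs, which 63 of the 189 comparisons were.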

Other observations

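Classes with under 50 cells in a library entered no comparison. Endothelial cells, the lining of blood vessels, numbered 13 in each tumor library and had Y-linked RNA of the hosts. Iigp1 had 9 UMIs in WT (25.2 CPM, 11.5 to 47.9) and 69 in KO (329 CPM, 256 to 416), the highest Iigp1 level of any class with at least 10 cells. Gbp2 had 2 and 22 UMIs (5.61 and 105 CPM), Gbp7 10 and 23 (28.0 and 110 CPM) and Gbp4 13 and 17 (36.5 and 81.0 CPM). Gbp3 had 10 and 5 UMIs (28.0 and 23.8 CPM), with intervals that overlapped. The 46 migratory dendritic cells of WT sorted tumors had Gbp2 at 148 CPM (119 to 181) and no Iigp1 UMI, beside the 187 CPM (163 to 215) of the 90 cells in KO.

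In the neuroblastoma and fibroblast classes of total tumors, class I genes did not move as 1 group among the cells with 0 to 4 members. B2m was at 103 CPM in WT and 219 in KO and H2-D1 at 37.4 and 85.4, whereas H2-K1 was at 29.9 and 9.04, Psmb8 at 4.96 and 1.5 and Tap1 at 3.03 and 0.919.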
